A study of Mus musculus with 3 samples.

Results

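The genes described here mark the myeloid side of the blood system: neutrophil granule and cytosolic proteins, monocyte and macrophage receptors, the phagocyte oxidase, and proteins carried by nearly all white blood cells. They were taken from a list of 55 gene symbols, matched through current or former symbols to probesets that name exactly 1 of them, and a gene needed at least 4 probesets. Of the 55 genes, 53 met that minimum, out of 18865 genes tested on the arrays. S100a9 had 3 probesets and entered a test only where that minimum was dropped, and Lst1 is not analysed here. The groups held 8 granule, 8 other neutrophil, 14 monocyte, 10 macrophage and 15 pan-leukocyte genes, of which 8, 7, 14, 10 and 14 were measured.

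RNA came from the marrow of C57BL/6 mice, from cells sorted for GFP by flow cytometry directly after isolation. In these mice a nestin promoter drives GFP, which marks few cells, mainly stroma along the marrow's vessels. The design had 3 arrays of this 1 group and no control or GFP-negative group, and no label ties the samples to separate mice or sorts, so p-values reflect only how far these arrays differ, which may be technical. The arrays hold the RNA of all sorted cells together, so few cells with much of a transcript and many cells with little of it cannot be told apart.

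Neutrophils mature in the marrow through stages that each fill a new set of granules. Promyelocytes make the primary (azurophil) granules with myeloperoxidase and the serine proteases, and later stages make the secondary and tertiary granules with lactoferrin, cathelicidin and lipocalin. Monocytes and macrophages carry Fc receptors, scavenger receptors and lectins, and marrow macrophages carry F4/80 (Adgre1), Cd163 and Vsig4. Ptprc encodes CD45, the surface phosphatase used to exclude blood cells when stroma is sorted.

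The 4 primary granule genes of the list were Mpo, Elane, Prtn3 and Ctsg. The 250 bases before their annotated starts are shown because these 4 genes are made together in the same cell stage. A further reason is that all 4 were called over the chemosensory background described below, as 50.6% of all genes were. Of the 4, only Mpo was called over the other-tissue background, described there too. For Elane, Prtn3 and Ctsg the mean of value minus that threshold was -0.41, -0.40 and -0.20. The assignment of the Elane probesets is uncertain, as given below. The sequences are from RefSeq, build GRCm38.p6. Capitals mark the letters GAGGAA, a core of the binding motif of PU.1 (the product of Spi1) and of related ETS factors, and TGTGGT, a RUNX motif, on either strand. The motif TTGCNNAA of C/EBP factors was also searched and has no match in these 4 windows, and no marked motifs overlap. The windows are chr11:87793534-87793783 on the plus strand for Mpo, chr10:79886062-79886311 on the plus strand for Elane, chr10:79879417-79879666 on the plus strand for Prtn3, and chr14:56102575-56102824 on the minus strand for Ctsg, each 5′ to 3′.
Mpo: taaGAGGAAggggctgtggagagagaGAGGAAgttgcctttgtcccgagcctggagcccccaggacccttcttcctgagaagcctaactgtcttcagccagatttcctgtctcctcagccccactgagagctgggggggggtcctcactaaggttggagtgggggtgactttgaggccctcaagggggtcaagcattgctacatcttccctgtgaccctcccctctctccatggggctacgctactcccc
Elane: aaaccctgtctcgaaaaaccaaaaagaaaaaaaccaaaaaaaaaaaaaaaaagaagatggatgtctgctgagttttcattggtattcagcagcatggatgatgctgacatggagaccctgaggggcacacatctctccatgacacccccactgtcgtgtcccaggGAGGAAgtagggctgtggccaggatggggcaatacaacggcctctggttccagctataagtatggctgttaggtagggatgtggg
Prtn3: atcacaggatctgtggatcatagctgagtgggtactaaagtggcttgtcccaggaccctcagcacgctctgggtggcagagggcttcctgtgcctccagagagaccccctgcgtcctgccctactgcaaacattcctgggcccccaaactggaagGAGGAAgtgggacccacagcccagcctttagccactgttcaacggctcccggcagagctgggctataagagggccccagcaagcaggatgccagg
Ctsg: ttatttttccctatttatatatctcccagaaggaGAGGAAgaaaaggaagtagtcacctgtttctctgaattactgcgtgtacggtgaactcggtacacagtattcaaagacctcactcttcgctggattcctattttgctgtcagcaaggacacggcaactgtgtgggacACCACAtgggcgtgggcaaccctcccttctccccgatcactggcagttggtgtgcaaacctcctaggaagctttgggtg

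GAGGAA stands at 2 places in the Mpo window and at 1 place in each of the windows of Elane, Prtn3 and Ctsg. Of the 55 genes, 44 had a promoter in the RefSeq table, with 1 window taken per gene. GAGGAA stood in 20 of these 44 windows (45.5%) and in 6252 of all 27025 promoters (23.1%). Among the 8 granule genes it stood in 6. TTGCNNAA stood in 10 of the 44 windows (22.7%) and in 9.55% of all promoters, and TGTGGT in 6 (13.6%) and in 14.2% of all promoters. A match describes the letters only. Prtn3 and Elane are next to each other on chromosome 10, and S100a8 and S100a9 on chromosome 3.

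A gene was given, per array, the median of the log2 values of its probesets. With no second group, a gene was set against the 95th percentile of 355 olfactory, vomeronasal and bitter taste receptor genes on the same array, called the chemosensory background here. That threshold was 5.40, 5.66 and 5.64 on arrays 1, 2 and 3. The margin of a gene is its value minus the threshold. It was tested with limma, one-sided, with Benjamini-Hochberg adjustment over all 18865 genes, and an adjusted p below 0.05 counted as above background. Limma took part of each gene's variance from the other genes (6.05 prior degrees of freedom), and the threshold was treated as fixed. Of all genes tested, 50.6% lay above background. A stricter comparison used the 95th percentile of 40 genes of liver, retina, sperm, skin, gut and other tissues that marrow cells should lack, and 19.0% of all genes lay above that other-tissue background. Of those 40 genes, 5 lay above the chemosensory background, among them the liver apolipoprotein gene Apoa2 with 7.25 ± 0.16 (SD, n = 3). Because probes differ in affinity, genes are not ranked by level against each other. Affinity also acts on each margin and call, since the thresholds are taken from other genes.

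In the sorted cells nearly all stromal marker genes lay above background, and the myeloid and leukocyte genes did so in part. Of the 53 measured myeloid and leukocyte genes, 20 (37.7%) lay above the chemosensory background, against 50.6% of all genes, and 6 (11.3%) lay above the other-tissue background, against 19.0% of all genes. These 6 were Camp, Mpo, S100a8, Sirpa, Cybb and Lcp2. Of them 5 exceeded the other-tissue threshold on every array. Mpo did not, since its 6.59 on array 1 lay below that array's threshold of 7.15. The other-tissue threshold itself fell, with 7.15, 6.78 and 6.40 on arrays 1, 2 and 3. The margins of Mpo over it were -0.55, 1.503 and 3.29, and they hold the change of the threshold as well as that of Mpo. In the fit to this background limma pooled the variances over genes fully, so the spread of Mpo itself had no weight in its call. The median margin of the 53 genes was 0.03, against 0.50 over all genes. Of the 14 stromal marker genes 13 lay above background, with Cxcl12 at 11.75 ± 0.14 and Lepr at 11.38 ± 0.12 (SD, n = 3), while Nes itself had 5.97, 5.21 and 5.56 on arrays 1, 2 and 3 and was not called (adjusted p = 0.757, limma). The groups differed in how many members passed, with 7 of 8 granule genes, 3 of 7 other neutrophil genes, 6 of 14 monocyte genes, 1 of 10 macrophage genes and 3 of 14 pan-leukocyte genes above the chemosensory background. On the other-tissue background the counts were 2, 1, 2, 0 and 1 in that order.

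**Figure D1:**
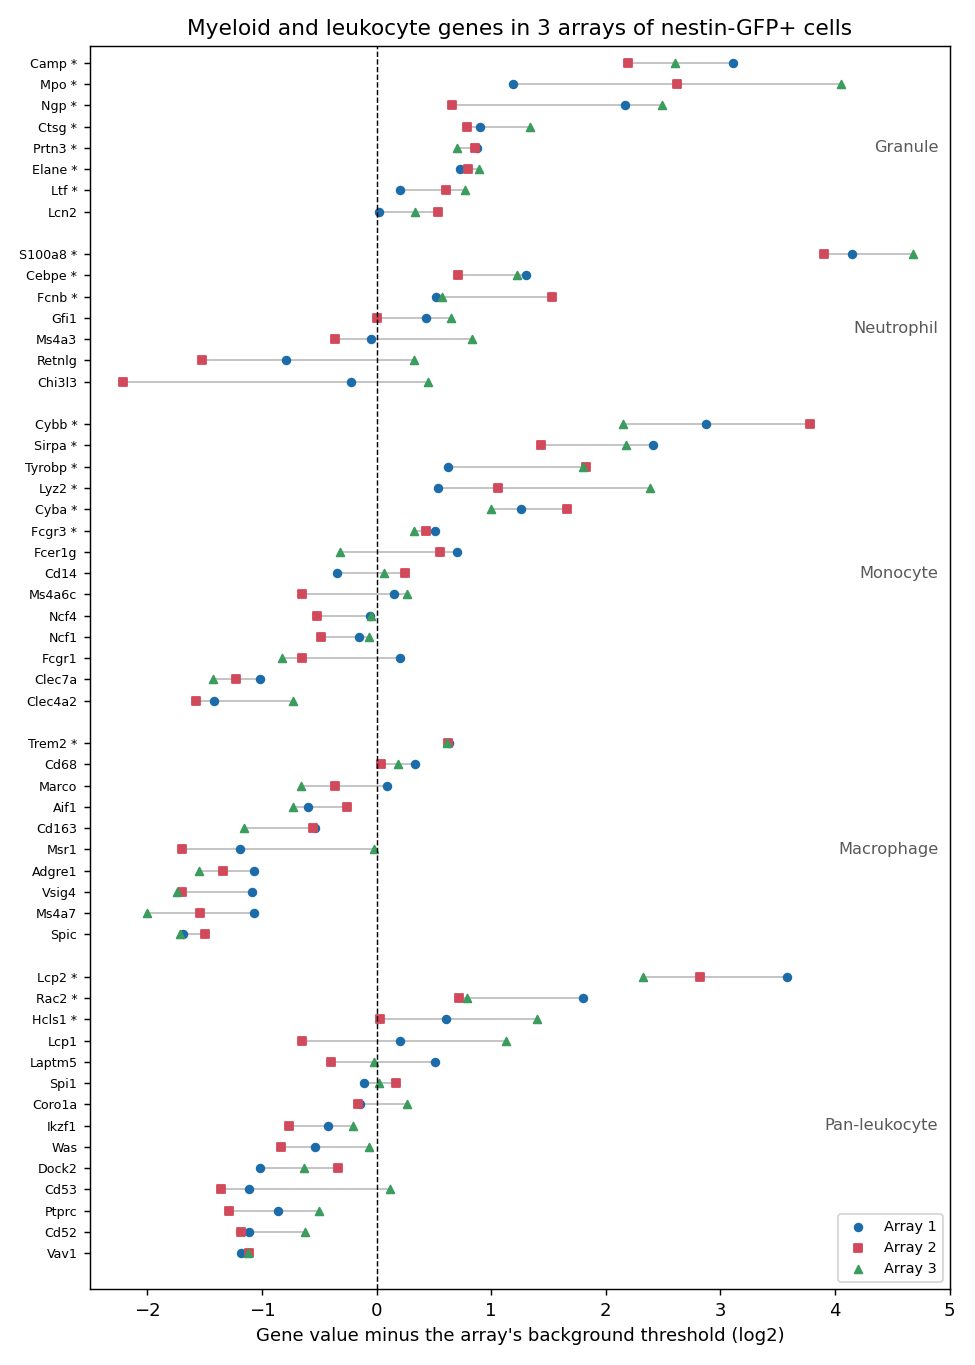
Margin of each measured gene over the chemosensory threshold of the same array (log2, horizontal axis), with 1 point per array and genes sorted by mean margin within their group. An asterisk marks the 20 genes above background by limma, and the dashed line is the threshold. Granule genes lie to its right on all 3 arrays, while most macrophage and pan-leukocyte genes lie to its left.

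Granule genes were above the chemosensory background in the sorted cells with 1 exception, but by limma 2 of 8, Camp and Mpo, lay above the other-tissue background. Of all genes 19.0% did so. All 8 lay above the chemosensory threshold on each of the 3 arrays, as 55.0% of all genes did, and 7 of the 8 were called over it by limma. Mpo, the gene of myeloperoxidase, which makes hypochlorous acid in the phagosome, had 6.59, 8.28 and 9.69 on arrays 1, 2 and 3. It was lowest on array 1 and highest on array 3, a range of 3.10 on the log2 scale, and its margin of 2.62 was called (adjusted p = 0.000598, limma). The probesets of Mpo moved together, since 14 of 15 had their highest value on array 3. The 95th percentile of the probesets of the chemosensory genes, taken on each array as a threshold for single probesets, was passed by 7, 9 and 12 Mpo probesets on arrays 1, 2 and 3.

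The genes of 3 serine proteases of the same granules were also called. Elane, the neutrophil elastase gene, had 6.13, 6.45 and 6.53 on arrays 1, 2 and 3 (adjusted p = 0.00259, limma). Its 8 probesets are annotated Ela2, a former symbol of Elane and also of the pancreatic elastase gene Cela2a, so the assignment is uncertain. A single Elane probeset passed the probeset threshold on all 3 arrays, with 10.8, 11.1 and 11.3. Prtn3, the gene of proteinase 3, had 6.28, 6.51 and 6.34 (adjusted p = 0.00251, limma). Ctsg, the cathepsin G gene, had 6.30, 6.45 and 6.98 (adjusted p = 0.00123, limma), with 0 of its 10 probesets above the probeset threshold on all 3 arrays. Like Mpo, these 3 protease genes were lowest on array 1, with ranges of 0.23 to 0.68 on the log2 scale. None of the 3 lay above the other-tissue background by limma.

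Genes of the later granules were also above background, with the exception of Lcn2. Camp, which encodes the antimicrobial cathelicidin, had 8.51, 7.85 and 8.24 on arrays 1, 2 and 3, a margin of 2.64 (adjusted p = 9.38e-06, limma). Ngp, the neutrophilic granule protein gene, had 7.57, 6.32 and 8.13 and was lowest on array 2 (adjusted p = 0.00101, limma). Ltf, the gene of the iron-binding protein lactoferrin, had 5.61, 6.26 and 6.41 (adjusted p = 0.0285, limma). Leaving out array 2 ended its call (adjusted p = 0.109, limma), as did leaving out array 3 (adjusted p = 0.161, limma). The margin of Ltf was 0.53 with all arrays, 0.49 without array 2 and 0.40 without array 3. Lcn2, whose product lipocalin-2 binds bacterial siderophores, had 5.43, 6.19 and 5.98, above the threshold on all 3 arrays but not called (adjusted p = 0.144, limma).

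Among the other neutrophil genes, the alarmin genes S100a8 and S100a9 gave a clear signal, while Retnlg, Chi3l3, Ms4a3 and Gfi1 were not called. S100a8, which encodes a subunit of the calcium-binding protein calprotectin, had 9.55, 9.56 and 10.32 on arrays 1, 2 and 3, a margin of 4.24 (adjusted p = 7.15e-07, limma). S100a9, the partner subunit, had 10.27, 9.97 and 10.90 over its 3 probesets, above the gene threshold on each array, and was called where genes needed no minimum of probesets (adjusted p = 4.84e-05, limma). All 4 S100a8 probesets were highest on array 3. Cebpe, the transcription factor gene needed for secondary granules, had 6.71, 6.37 and 6.86 over 4 probesets (adjusted p = 0.000959, limma). One of those 4 probesets passed the probeset threshold. Fcnb, the ficolin B gene, had 5.92, 7.19 and 6.21 (adjusted p = 0.00786, limma), and without array 2 its margin was 0.54 in place of 0.87 and the call was lost (adjusted p = 0.0756, limma).

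Of the remaining neutrophil genes, 4 did not pass. Retnlg, a resistin-like gene of mature neutrophils, had 4.61, 4.13 and 5.97 on arrays 1, 2 and 3. Chi3l3 (now Chil3), which encodes a chitinase-like protein, had 5.17, 3.44 and 6.09, and Ms4a3, a marker of granulocyte and monocyte progenitors, had 5.36, 5.29 and 6.47. These 3 genes exceeded the threshold on array 3 and lay below it on arrays 1 and 2. The Chi3l3 probesets were split: the brightest had 10.6, 9.64 and 11.2, and 2 of 19 passed the probeset threshold on all 3 arrays. Chi3l3 has close paralogs, so some of its signal may be theirs. Gfi1, a repressor that directs progenitors to the neutrophil fate, had 5.83, 5.66 and 6.29, just above the threshold (adjusted p = 0.103, limma). It was called where genes needed at least 8 probesets (adjusted p = 0.0449, limma).

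In the monocyte group the oxidase and adaptor genes split. Cybb, the gene of the catalytic subunit of the phagocyte NADPH oxidase, had 8.27, 9.43 and 7.79 on arrays 1, 2 and 3, a margin of 2.93 (adjusted p = 2.58e-05, limma). It was highest on array 2, as were 14 of its 16 probesets, whereas Mpo and S100a8 were highest on array 3. Cyba, the membrane partner of Cybb, had 6.66, 7.31 and 6.64 and was also highest on array 2 (adjusted p = 0.000331, limma). The cytosolic subunits Ncf1 and Ncf4 were below the threshold on all 3 arrays, Ncf1 with 5.24, 5.17 and 5.58 and Ncf4 with 5.34, 5.14 and 5.59. Cyba is expressed in many cell types, and its call does not assign the signal to phagocytes.

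Tyrobp, the gene of the adaptor DAP12 of myeloid activating receptors, had 6.03, 7.48 and 7.45 on arrays 1, 2 and 3 (adjusted p = 0.00101, limma). Fcer1g, the common gamma chain of Fc receptors, had 6.10, 6.21 and 5.32 and was not called (adjusted p = 0.2, limma). The mean over its 6 probesets in place of the median gave a call (adjusted p = 0.000279, limma), as did leaving out array 3 (adjusted p = 0.043, limma), and its brightest probeset had 9.85, 10.1 and 10.3. Of the Fc gamma receptor genes, Fcgr3 had 5.91, 6.09 and 5.96, close to the threshold (adjusted p = 0.0464, limma). The call was lost without any 1 of the arrays, with adjusted p-values of 0.0907, 0.163 and 0.108 (limma) without arrays 1, 2 and 3. The margin of Fcgr3 was 0.42 with all arrays, and 0.38, 0.42 and 0.47 without arrays 1, 2 and 3. The high-affinity receptor gene Fcgr1 had 5.60, 5.004 and 4.81 and was not called.

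Sirpa and Lyz2 lay above the chemosensory background, and Cd14, Ms4a6c and the lectin genes did not. Of these genes only Sirpa also lay above the other-tissue background. Sirpa, the receptor of the don't-eat-me signal CD47, had 7.82, 7.09 and 7.81 on arrays 1, 2 and 3 (adjusted p = 5.81e-05, limma), and 5 of its 14 probesets passed the probeset threshold on all 3 arrays. Lyz2, the lysozyme gene of myeloid cells, had 5.93, 6.72 and 8.03 (adjusted p = 0.00445, limma), low on array 1 and high on array 3 in the same order as Mpo. Without array 3 its margin was 0.80 in place of 1.33, and over the other-tissue threshold its margin was 0.12. Of the 6 Lyz2 probesets 1 passed the probeset threshold on all 3 arrays. A further 15 probesets name Lyz2 together with other genes and were not used. The lipopolysaccharide co-receptor gene Cd14 had 5.05, 5.90 and 5.71 and Ms4a6c had 5.55, 5.003 and 5.91, both around the threshold and neither called. The C-type lectin genes Clec7a, which encodes the beta-glucan receptor dectin-1, and Clec4a2 were below the threshold on all 3 arrays, with 4.35 ± 0.11 and 4.33 ± 0.51 (SD, n = 3).

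Tissue macrophage genes were near or below background. Of 10 genes 1 was called, where 12.5% of the genes of other tissues and 50.6% of all genes were, and their median margin was -0.86. By limma 0 of 10 lay above the other-tissue background, and 0 did so with p below 0.05 before adjustment or by exceeding that threshold on every array. Adgre1, the F4/80 gene, had 4.33, 4.32 and 4.09 on arrays 1, 2 and 3. Cd163, the haemoglobin scavenger receptor gene, had 4.86, 5.10 and 4.48. Both were below the threshold on every array, as were the complement receptor gene Vsig4 (4.06 ± 0.23, SD, n = 3), Spic, which encodes a transcription factor of iron-recycling macrophages (3.93 ± 0.23), Ms4a7 (4.03 ± 0.36) and the actin-bundling marker gene Aif1 (5.04 ± 0.31). Of the 27 Adgre1 probesets 2 passed the probeset threshold on all 3 arrays, and the brightest had 9.28, 9.53 and 9.49. Of the 15 Ms4a7 probesets 1 passed it on all 3 arrays. No probeset of Cd163, Vsig4, Spic or Aif1 did so.

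The called macrophage gene was Trem2, a lipid-sensing receptor gene whose product signals through the Tyrobp adaptor, with 6.03, 6.28 and 6.26 on arrays 1, 2 and 3 (adjusted p = 0.0089, limma). Its margins of 0.63, 0.63 and 0.62 differed little between the arrays, and 1 of its 7 probesets passed the probeset threshold. Cd68, a lysosomal glycoprotein gene, had 5.74, 5.70 and 5.83, above the threshold on all 3 arrays but not called (adjusted p = 0.287, limma). The scavenger receptor gene Msr1 had 4.21, 3.96 and 5.61, and 13 of its 15 probesets were highest on array 3, where the gene still lay just below the threshold. The scavenger receptor gene Marco had 5.49, 5.29 and 4.98 and was not called, although 3 of its 22 probesets passed the probeset threshold on all 3 arrays and the brightest had 10.2, 10.1 and 10.1. Single bright probesets of this kind, in genes whose other probesets are dim, were not resolved further.

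Pan-leukocyte genes were mostly at background, with Lcp2, Rac2 and Hcls1 as the exceptions. Of 14 measured genes 3 were called, against 50.6% of all genes, and 1 of them, Lcp2, was above the other-tissue background too, against 19.0% of all genes. Lcp2 encodes the adaptor SLP-76 of T cells, platelets and myeloid cells, and had 8.98, 8.48 and 7.96 on arrays 1, 2 and 3, a margin of 2.91 (adjusted p = 1.17e-05, limma). It was highest on array 1 and lowest on array 3, the reverse of Mpo. The signal was shared by its probesets, of which 14 of 25 passed the probeset threshold on all 3 arrays. Vav1 and Was, whose products act with SLP-76 in signalling to actin, were below the threshold on every array, with 4.43 ± 0.18 and 5.09 ± 0.42 (SD, n = 3). The brightest of the 16 Was probesets had 13.0, 13.0 and 12.9, while the median stayed low.

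Rac2, the GTPase gene of blood cells that activates the phagocyte oxidase, had 7.20, 6.38 and 6.43 on arrays 1, 2 and 3 (adjusted p = 0.00279, limma). Hcls1, a cortactin-like gene, had 6.00, 5.69 and 7.04 (adjusted p = 0.0347, limma), and leaving out array 1 ended its call (adjusted p = 0.12, limma), as did leaving out array 3, where the margin was 0.32 in place of 0.68 (adjusted p = 0.257, limma). Lcp1, which encodes the actin bundler L-plastin, had 5.60, 5.01 and 6.77 and was not called (adjusted p = 0.407, limma). Without array 2 it was called (adjusted p = 0.032, limma), with margins of 0.20 and 1.13 on arrays 1 and 3. In that fit limma pooled the variances over genes fully, so the spread of Lcp1 itself had no weight in the call. Of its 29 probesets 21 were highest on array 3.

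Ptprc, the CD45 gene, had 4.54, 4.37 and 5.14 on arrays 1, 2 and 3, below the threshold on each. Of its 53 probesets 5 passed the probeset threshold on all 3 arrays, and the brightest had 10.6, 10.3 and 10.6. Spi1, the gene of the myeloid master regulator PU.1, had 5.29, 5.83 and 5.66, at the threshold and not called (adjusted p = 0.703, limma). Laptm5, a lysosomal membrane protein gene, had 5.91, 5.26 and 5.62, and the actin regulator gene Coro1a had 5.26, 5.50 and 5.90, both around the threshold and not called. Laptm5 was called with the mean over probesets (adjusted p = 0.0333, limma). Cd53, a leukocyte tetraspanin gene, had 4.29, 4.30 and 5.76 and passed the threshold on array 3 only. Cd52 (4.59 ± 0.38, SD, n = 3), the lymphoid regulator gene Ikzf1 (5.10 ± 0.29) and Dock2 (4.90 ± 0.47), which encodes an activator of Rac in leukocytes, were below the threshold on every array.

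**Figure D2:**
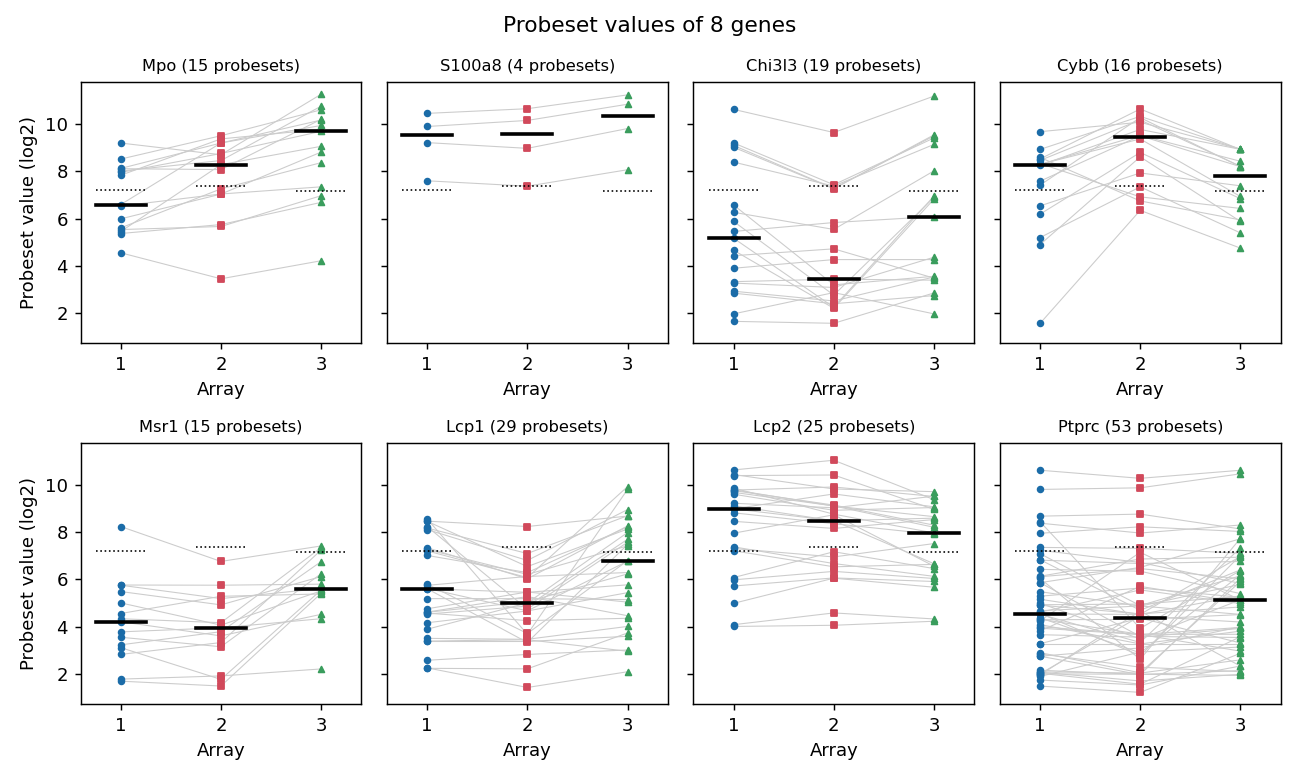
Values of single probesets (log2, vertical axis) on arrays 1 to 3 for 8 genes, chosen after their values were seen. Grey lines join a probeset across arrays, thick bars are the gene's median and dotted bars the probeset threshold of the array. Mpo and S100a8 probesets sit highest on array 3, Cybb probesets on array 2, and Ptprc has few bright probesets among 53.

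At the probeset level, 95 of the 751 probesets of the 53 genes (12.6%) passed the probeset threshold on all 3 arrays, against 25.1% of the probesets of all genes and 3.69% of chemosensory probesets. At least 1 such probeset was present in 36 genes and none in 17. The 17 include the called genes Ctsg, Ngp and Fcnb. By number, Lcp2, Cybb, Mpo, Sirpa and Ptprc had the most, with 14 of 25, 8 of 16, 7 of 15, 5 of 14 and 5 of 53. Camp and S100a8 had 3 of 5 and 3 of 4.

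After removal of each array's median deviation over all genes, array 3 was the highest for 30 of the 53 genes, most of which were not above background. The median range of a gene over the 3 arrays was 0.73 for the 53 genes and 0.51 for all genes. The 30 genes were 56.6% of the 53, against 32.3% of all genes. All counts of highest arrays here are after that removal and can differ from the order of the values themselves. Trem2, for example, had 6.28 on array 2 and 6.26 on array 3 and counts for array 3. Array 1 was the highest for 8 and array 2 for 15. By group, array 3 was the highest for 5 of 8 granule, 6 of 7 neutrophil, 7 of 14 monocyte, 3 of 10 macrophage and 9 of 14 pan-leukocyte genes. Among the 20 called genes array 3 was the highest for 12, against 31.5% of all called genes, and among the 33 others for 18. By group, this held for 5 of 7 called granule, 2 of 3 neutrophil, 3 of 6 monocyte, 1 of 1 macrophage and 1 of 3 pan-leukocyte genes. The other 3 called monocyte genes were highest on array 2, and Lcp2 and Rac2 on array 1. The median deviation on array 3 was 0.27 for granule, 0.54 for neutrophil, 0.23 for monocyte and 0.38 for pan-leukocyte genes, while that of the macrophage group was -0.10. With 3 arrays of 1 group these differences have no test.

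**Figure D3:**
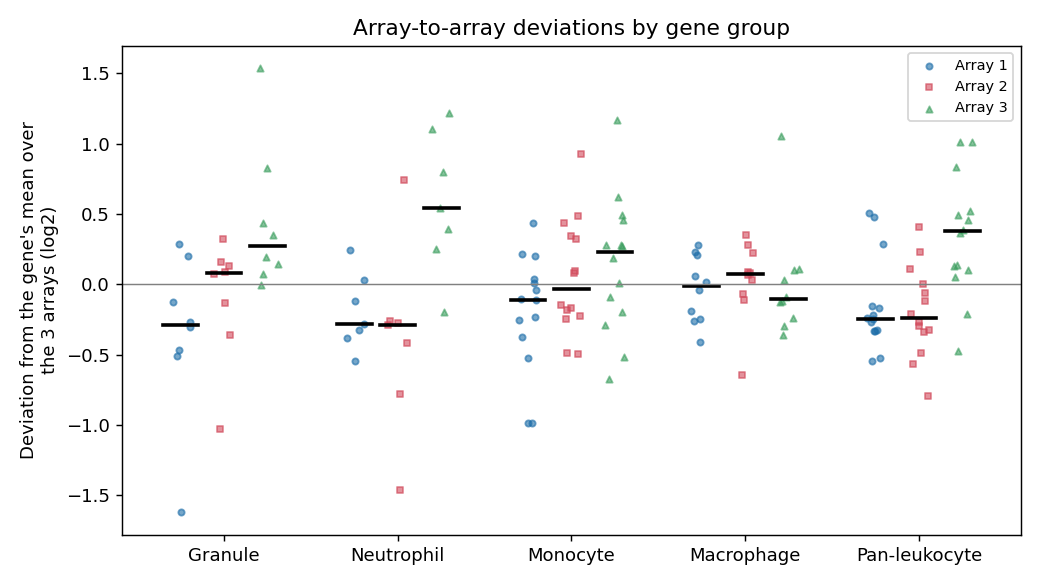
Deviation of each measured gene from its own mean over the 3 arrays (log2, vertical axis) by group and array, after removal of the median deviation of all genes on that array. Points are genes and bars are group medians. The neutrophil medians are -0.29, -0.29 and 0.54 on arrays 1, 2 and 3, and the macrophage medians are -0.01, 0.07 and -0.10.

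Markers of other cell types also differed between the arrays, with none of them listed at 0. All 15 measured endothelial genes were lowest on array 2, with median margins of 1.65, 0.35 and 1.97 on arrays 1, 2 and 3, and 12 of the 15 were highest on array 3. After the same removal of array medians, array 2 was the lowest for 20 of the 53 myeloid and leukocyte genes and array 1 for 23. These counts are given without the shares over all genes, so no difference between the arrays is read from them. Among 10 erythroid genes 7 were highest on array 3, with median margins of 0.06, -0.14 and -0.01, and among 11 cell cycle genes 7 were, with -0.03, -0.27 and 0.08. The margins also hold the differences of the thresholds, which were 5.40, 5.66 and 5.64 on arrays 1, 2 and 3. The counts do not, so the 2 measures can order the arrays differently. The part of these other markers in the myeloid values was not tested.

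Of 62 further genes of the same cells 18 were above the chemosensory background, against 50.6% of all genes, and 4 were above the other-tissue background, against 19.0%. These 4 were Hp, Lgmn, Arhgdib and Dock8. Of 16 other neutrophil genes 4 were above the chemosensory background, among them Hp, the haptoglobin gene that fat and liver also express (11.70 ± 0.15, SD, n = 3), Anxa3 (6.87 ± 0.47) and the peptidoglycan recognition gene Pglyrp1 (6.53 ± 0.31). Of 23 other monocyte and macrophage genes 7 were above it, among them the lysosomal protease gene Lgmn (8.45 ± 0.48), the mannose receptor gene Mrc1, which sinusoidal endothelium also expresses, with 8.39, 4.44 and 9.15 on arrays 1, 2 and 3, and the efferocytosis receptor gene Mertk (7.15 ± 0.72). The integrin gene Itgam and the receptor gene Csf1r, both defining for myeloid cells, were not called, with 5.41 ± 0.13 and 4.88 ± 0.39. Of 23 other pan-leukocyte genes 7 were above it, among them Arhgdib (9.45 ± 0.26), Dock8 (8.62 ± 0.17) and Gmfg (7.49 ± 0.64). The leukocyte integrin gene Itgb2 had 5.29 ± 0.04 and was not called.

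Lymphoid genes were not called. Of 9 B cell genes limma placed 0 above background, 1 with p below 0.05 before adjustment, and 1 exceeding the threshold on every array. For T and NK cells it was 0 of 10 by limma, 0 with p below 0.05 before adjustment, and 0 exceeding the threshold on every array. Of 8 genes of mast cells, basophils and eosinophils 1 was called, Prg2 (7.42 ± 1.13, SD, n = 3). Of 8 osteoclast genes 1 was called, Ctsk (8.74 ± 0.27). The erythroid list gave 2 of 10, Hbb-b1 (9.79 ± 1.27) and Epor (6.19 ± 0.31). The megakaryocyte list gave 2 of 6, the endothelial list 12 of 15, the cell cycle list 2 of 11 and the list of ubiquitous genes 13 of 13. All these counts are on the chemosensory background, which 50.6% of all genes passed. Of Prg2, Ctsk, Hbb-b1 and Epor, only Ctsk and Hbb-b1 also lay above the other-tissue background, which 19.0% of all genes passed.

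**Figure D4:**
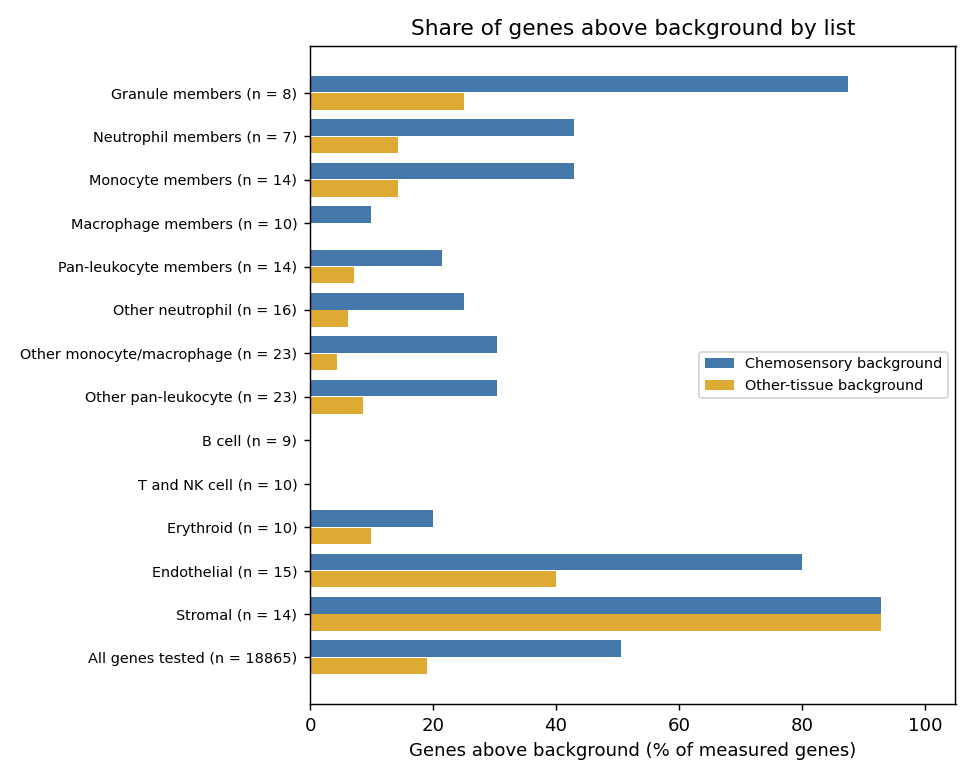
Share of measured genes above background (%, horizontal axis) for the 5 groups, for further lists of the same and other cell types, and for all genes tested, with the chemosensory and the other-tissue background in separate bars. Granule genes reach 87.5% on the chemosensory background, macrophage genes 10% and all genes 50.6%. On the other-tissue background 2 of 8 granule genes and 19.0% of all genes pass.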

How the data were processed

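The authors deposited 1 log2 value per probeset and array, made with Affymetrix Expression Console 1.1 and RMA, per the submitters' processing notes. Not given in the sources used here are the RMA settings and the annotation build. RNA was amplified and converted to sense strands with kits for small inputs, per the labels' protocols. Arrays have no read depth, and their number limits the precision.

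Of 1256831 probesets, 318760 had 1 gene symbol in the platform annotation and 6684 had several, which were left out. Former symbols were updated with a RefSeq table of GRCm38.p6. The test was an intercept-only fit of limma 3.58.1 in R 4.3.3 to gene value minus threshold. It was checked on simulated data. All genes of the 55 were named. Of each further list of the same cells up to 3 called genes with the largest margin were named, and those a statement turns on. In the lists of other cell types only some of the called genes were named. The genes and lists were chosen with earlier results of these data known. Alternatives changed the gene summary, probeset minimum, threshold, normalisation, filter and arrays.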

Additional observations from a re-analysis of the deposited data

How the results depend on the processing

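The count of 20 of 53 genes above background was 18 without each of the arrays in turn. Of all genes, 45.4%, 48.5% and 47.4% were called without arrays 1, 2 and 3. Under the mean and the upper quartile the count was 21 and 15 (54.2% and 46.1% of all genes). It was 20 under quantile normalisation, the filter on low values and leaving out probesets at 0 (50.9%, 52.5% and 50.6% of all genes). Under the rule without a model it was 23 (55.0% of all genes). With a minimum of 8 probesets it was 15 of the 41 genes that had them (60.2% of all genes), where the minimum of 4 called 14 of these 41. With no minimum it was 11 of 54, S100a9 among them, where 33.2% of all genes were called, with 3 granule and 1 pan-leukocyte genes. With the 99th percentile as threshold it was 5 (20.1% of all genes), with 1 granule, 1 neutrophil, 2 monocyte and 1 pan-leukocyte genes, and with the other-tissue background it was 6, with 2, 1, 2 and 1. The macrophage count of 1 was 0 under the upper quartile, no minimum, the 99th percentile and the other-tissue background, and 2 under the rule without a model. With a minimum of 8 it was 0 too, where Trem2, with 7 probesets, was not tested. Without each array the counts ranged from 6 to 7 for granule, 2 to 3 for neutrophil, 5 to 6 for monocyte and 2 to 4 for pan-leukocyte genes, and the macrophage count was 1. Of the 20 called genes 5 (Camp, S100a8, Sirpa, Cybb and Lcp2) were called by limma under every alternative that could be computed for them, and 4 of the 33 others were called under at least 1. Limma pooled variances over genes fully without array 2 and with the other-tissue background, and with 3.32 prior degrees of freedom without array 1.

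The margin was below 0 for 10 called genes under both stricter thresholds. With the 99th percentile it was -0.42 for Elane, -0.41 for Prtn3, -0.22 for Ctsg, -0.70 for Ltf, -0.35 for Fcnb, -0.15 for Cebpe, -0.81 for Fcgr3, -0.60 for Trem2, -0.12 for Rac2 and -0.55 for Hcls1. With the other-tissue background it was -0.41, -0.40, -0.20, -0.68, -0.34, -0.13, -0.79, -0.59, -0.11 and -0.53 for the same genes in that order. These thresholds lie higher by construction. The margin of Fcgr3 was also -0.15 with the mean over probesets and -0.064 with no minimum, and that of Trem2 -0.35 with the upper quartile, and the cause was not tested. No paired analysis was possible because the design has 1 group. Genes near the threshold cannot be placed on either side with 3 arrays.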
